A study of Homo sapiens with 3 samples.

Results

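SW48 cells with a DDX3 plasmid were set against SW48 cells with an empty plasmid, 1 array library a side, which makes 2 of the 3 libraries of the series. SW48 is an established line from a human colorectal carcinoma. The library labelled DDX3 came from cells with an overexpression plasmid for DDX3, and the vector library from cells with the empty vector pcDNA3.1. The other library, labelled DDX3+YAPsi, came from cells with the DDX3 plasmid and a further plasmid for knockdown of YAP1, and its intensities are given beside the others for the genes with the widest differences. All cells had been kept under the antibiotic G418 for 4 weeks and were stable populations, so the vector cells had been through selection as well. Per the labels, each library was made from 2 technical replicates. Their separate values were not analysed here. The sources used here name neither the promoter that drives the insert nor the number of clones.

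RNA was amplified, labelled with Cy5 and hybridised to 1-colour arrays. A probe intensity was scaled so that the 75th percentile of all probes was the same in each library, and the difference is log2 of the library labelled DDX3 minus log2 of the vector library. A gene value is the mean over its probes with exactly 1 gene symbol. It counted as measured when both libraries reached their own median probe intensity, called the floor below, which lay at 382 for the library labelled DDX3 and 378 for the vector library. By this rule 9863 of 18282 genes were measured. With 1 library a side no spread between samples exists and no test was made: a difference below is between single libraries.

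DDX3, encoded by DDX3X, is an RNA helicase of the DEAD-box family. It unwinds structured RNA, takes part in the initiation of translation, in mRNA export and in stress granules, and acts as a partner of kinases in innate immune signalling. In colorectal cancer cells it has been studied as a regulator of growth and invasion. YAP1 is the transcriptional coactivator of the Hippo pathway, which works with TEAD factors at genes for matrix proteins and growth control.

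The 2 libraries were close, with a Pearson correlation of log2 intensity of 0.994 across the 31741 probes of the arrays, which are not independent replicates. Differences of measured genes had a median of -0.01, an SD of 0.27 and a 5th to 95th percentile range from -0.42 to 0.43, and 93.9% lay within 0.5 of 0. Before scaling, the 75th percentile of the library labelled DDX3 was lower by 0.20 (log2) than that of the vector library, so each difference is relative to that shift. A change shared by most genes cannot be seen. Markers of a colon epithelial line were alike: 7 of 9 on the array were measured, with a median difference of -0.02. EPCAM, an epithelial adhesion molecule, had 101471 in the library labelled DDX3, against 100313 in the vector library, and CDX2, an intestinal transcription factor, had 10138 and 10278 in the same order. The stem cell marker LGR5 and the brush border gene VIL1 lay under the floor in both. Of the stromal and blood markers 3 of 11 on the array were measured, so this group was not silent. These 3 had a median intensity of 1951 in the library labelled DDX3, against 2362 in the vector library, well above the floor. All 3 lay below 0, between -0.28 and -0.05. PTPRC, CD3E, PECAM1 and HBB, also from this group, were under the floor in both libraries.

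DDX3X itself did not bear out the label by its gene value, which was lower by 0.47 on 2 probes that disagreed. The bright probe had 57967 in the library labelled DDX3, 48085 in the library labelled DDX3+YAPsi and 49549 in the vector library, a difference of 0.23. The dim probe had 879, 813 and 1975 in the same order, a difference of -1.17. The sources used here hold no probe positions. Whether either probe lies inside the plasmid insert is therefore unknown, and a probe outside it would check nothing. For this reason the libraries are called by their labels throughout. YAP1, on 1 probe, had 20279 in the library labelled DDX3, 20768 in the library labelled DDX3+YAPsi and 18298 in the vector library.

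At the 2-fold threshold 18 genes were higher in the library labelled DDX3, which is 0.183% of measured genes, and 15 were lower, which is 0.152%. The higher genes included transcription factors, adaptors and secreted proteins, and the lower genes included enzymes, a mitochondrial ribosomal protein and a splicing factor. Of the 18 higher genes 16 rest on 1 probe, and so do 14 of the 15 lower ones. Among all 9863 measured genes 6664 rest on 1 probe. The vector value lay within 1.5-fold of its floor for 6 of the higher genes, and the value of the library labelled DDX3 did so for 3 of the lower genes. The 2-fold line cut a dense run of values: SERINC1 and CYP1A1 were just inside at 1.00 each, PDS5A and PALM just outside at 0.99 and 0.98, and RHOV at -0.99 just outside on the other side.

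**Figure D1:**
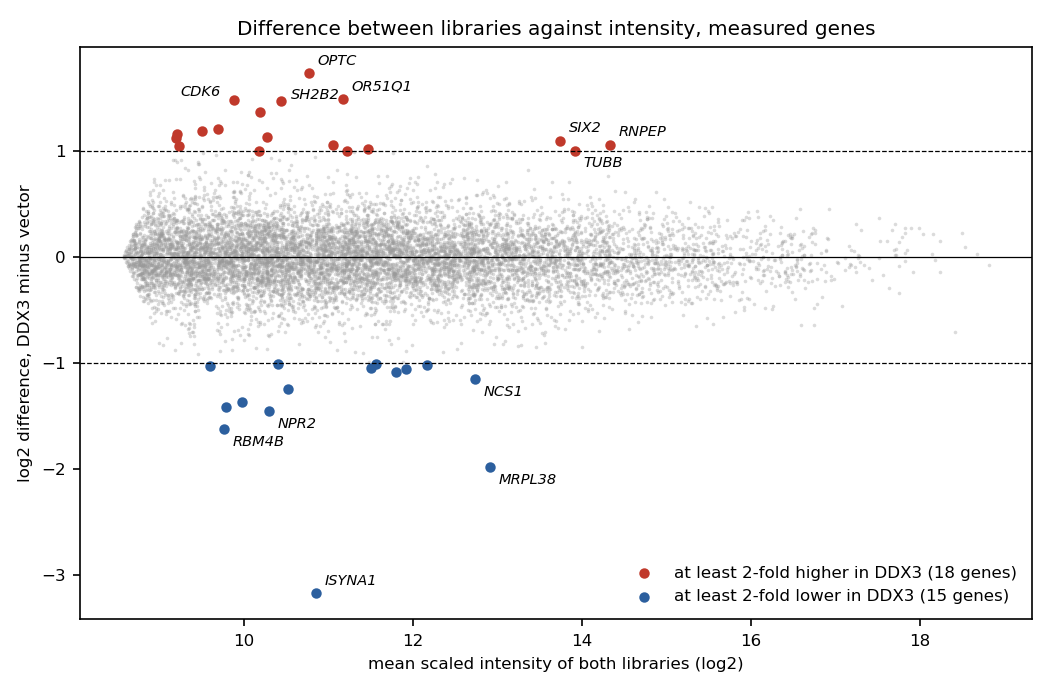
Each point is 1 of 9863 measured genes, with its mean scaled intensity (log2) on the horizontal axis and the log2 difference, DDX3 minus vector, on the vertical axis. Red points mark the 18 higher and blue points the 15 lower genes at the 2-fold threshold, which dashed lines show. Most differences lie between -0.42 and 0.43, and ISYNA1 at -3.17 stands farthest from 0.

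Among the higher transcription factors, ATF3, which is induced by many kinds of cell stress, had 1880 in the library labelled DDX3, 2443 in the library labelled DDX3+YAPsi and 725 in the vector library. That is a log2 difference of 1.37, DDX3 minus vector. FOSL1, a FOS-type subunit of the AP-1 transcription factor, had 1093, 996 and 479 in the same order and a difference of 1.19. Both genes were high in the libraries with a DDX3 label and low in the vector library, where FOSL1 was near the floor. SIX2, a homeobox factor of nephron progenitor cells, had 20057 in the library labelled DDX3, 7243 in the library labelled DDX3+YAPsi and 9353 in the vector library, a difference of 1.10. SIX2 was thus among the bright genes, and the library labelled DDX3+YAPsi was on the side of the vector library.

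Signalling and cell cycle genes were also among the 18. The adaptor SH2B2, which binds receptor tyrosine kinases and the insulin receptor, had 2306 in the library labelled DDX3, 3192 in the library labelled DDX3+YAPsi and 828 in the vector library, a difference of 1.48. CDK6, a kinase that drives the G1 phase, was 2.80-fold higher on 2 probes. The bright CDK6 probe had 3226, 2971 and 1657 in that order and a difference of 0.96. The other had 776 and 431 in the libraries labelled DDX3 and DDX3+YAPsi and 192 in the vector library, the last being under the floor. FKBPL, a co-chaperone of HSP90 complexes, had 1259, 1166 and 544 in the order of labels DDX3, DDX3+YAPsi and vector.

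Secreted and surface proteins formed another group. OPTC, a small leucine-rich proteoglycan of the eye, had the largest positive difference at 1.74, with 3181 in the library labelled DDX3, 907 in the library labelled DDX3+YAPsi and 953 in the vector library. Only the library labelled DDX3 was high for this gene. RSPO2, a secreted agonist of Wnt signalling, had 866, 747 and 397 in the same order. The chemokine CCL8 had 886, 554 and 395, and COLEC12, a scavenger receptor with a lectin domain, had 1826, 1644 and 830. The vector values of RSPO2 and CCL8 lay next to the floor. CYR61 (current symbol CCN1), a secreted matrix protein, had 861 in the library labelled DDX3, 585 in the library labelled DDX3+YAPsi and 417 in the vector library.

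Bright genes past the threshold on the higher side were SIX2, the aminopeptidase RNPEP and the beta-tubulin gene TUBB. RNPEP had 29817 in the library labelled DDX3, 36429 in the library labelled DDX3+YAPsi and 14286 in the vector library. TUBB, a subunit of microtubules, had 21977, 21599 and 10943 in that order. Others of the 18 were OR51Q1, an olfactory receptor, at 3881, 2344 and 1377 in the order of labels DDX3, DDX3+YAPsi and vector, RN7SK, the small nuclear RNA that holds back the elongation factor P-TEFb, at 1.02, the xenobiotic-metabolising enzyme CYP1A1 and the serine incorporator SERINC1. Without scaling to a common level 12 of the 18 were under 2-fold, and OPTC, OR51Q1, CDK6, SH2B2, ATF3 and FKBPL stayed past it.

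The widest difference of all was that of ISYNA1, the enzyme that makes inositol phosphate from glucose 6-phosphate. It had 615 in the library labelled DDX3, 1241 in the library labelled DDX3+YAPsi and 5545 in the vector library, so that the vector library was 9.02-fold higher. MRPL38, a protein of the large subunit of the mitochondrial ribosome, had 3881, 7686 and 15342 in the same order, a difference of -1.98. Both were lowest in the library labelled DDX3 and in between in the library labelled DDX3+YAPsi. RBM4B, an RNA-binding splicing regulator, had 494, 717 and 1524 in that order and a difference of -1.62.

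NPR2, the receptor of C-type natriuretic peptide, had 758 in the library labelled DDX3, 1439 in the library labelled DDX3+YAPsi and 2075 in the vector library. GMPPA, a regulator of the synthesis of GDP-mannose, had 629, 703 and 1624 in the same order. Its value was low in both libraries with a DDX3 label, as was that of the zinc finger factor GLIS1, with 542, 632 and 1444. NCS1, a neuronal calcium sensor, had 4567 in the library labelled DDX3, 10174 in the library labelled DDX3+YAPsi and 10181 in the vector library. NCS1 was low in the library labelled DDX3 and nearly equal in the other two libraries. MDK, a heparin-binding growth factor, had 2432, 3432 and 5176 in the order of labels DDX3, DDX3+YAPsi and vector.

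The remaining lower genes lay between -1.24 and -1.01. They were C12orf68, ZNF434 (current symbol ZSCAN32), C6orf15, CUEDC1, the olfactory receptor OR10AD1, IGBP1 and the pseudogene ANP32AP1, whose signal may be shared with its near-identical parent gene. IGBP1, which binds the catalytic subunit of protein phosphatase 2A, was the lower gene with 2 probes, and these stood at -0.98 and -1.05. MDK, MRPL38, NCS1, OR10AD1 and ZNF434 were past 2-fold in all 10 alternative settings of scaling, floor and probe summary. No gene of the higher group was, but the settings do not treat both directions alike. Leaving the scaling out lowers every difference, which favours lower calls, and SIX2 and RNPEP fell short in that setting alone.

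**Figure D2:**
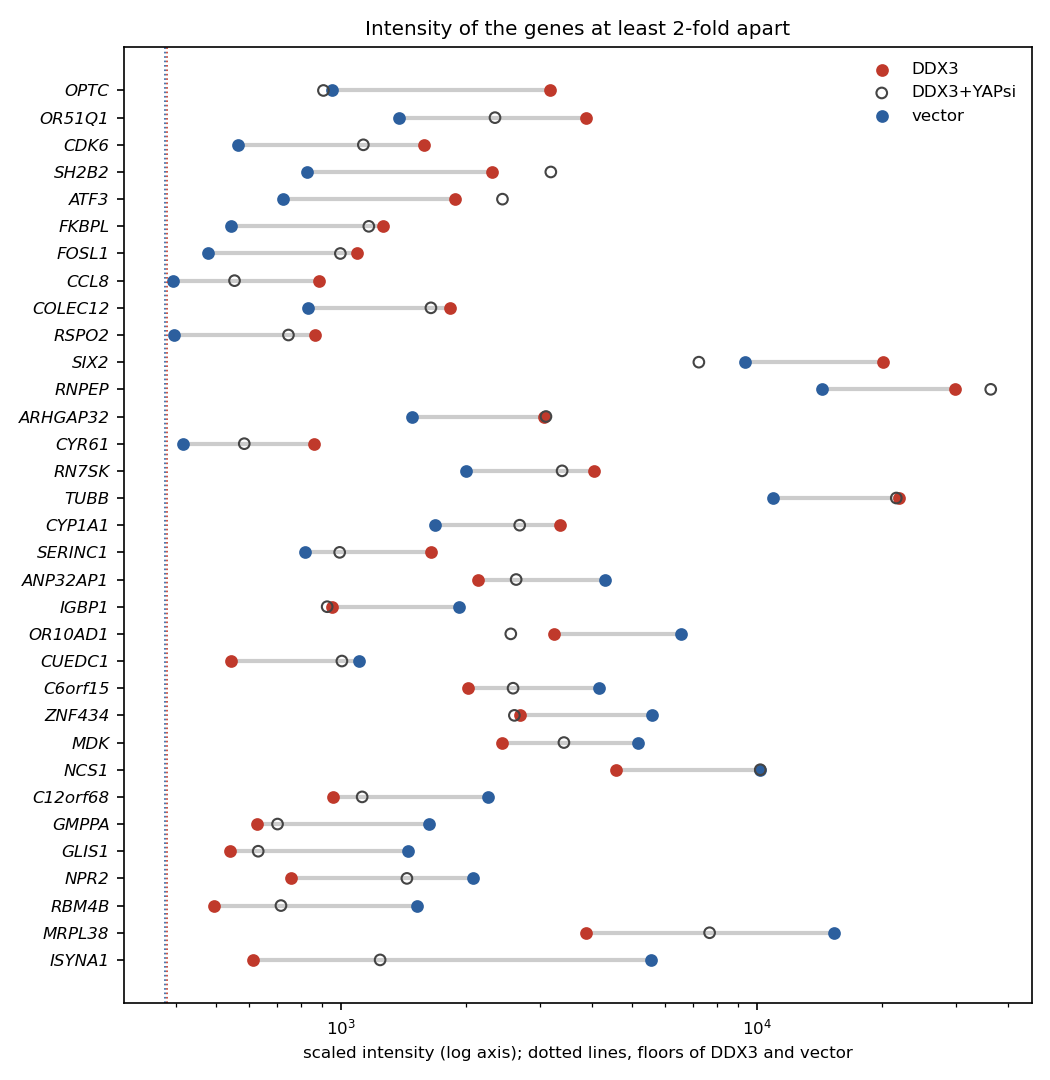
Scaled intensity (log axis) of the 33 genes at least 2-fold apart, with 1 row a gene ordered by the difference. Filled red points are the library labelled DDX3, open points the library labelled DDX3+YAPsi and filled blue points the vector library, and grey bars join DDX3 and vector. OPTC and SIX2 have the open point beside or below the blue one, while SH2B2, ATF3 and RNPEP have it above the red one.

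Genes under the floor in 1 library can only be given a bound, the bright value over the floor of the dim library. In 219 genes this was the vector library and in 228 the library labelled DDX3. The bound reached 2-fold for 5 genes on the higher side. POU3F1, a POU-domain factor of neural and skin cells, had 1772 in the library labelled DDX3, against 345 in the vector library and was at least 4.69-fold higher. AZU1, an antimicrobial protein of neutrophils, the proton pump subunit ATP12A, the lens filament gene BFSP2 and the testis kinase TSSK3 followed, with a bound of 2.21 for AZU1. On the lower side REG3G, an intestinal antimicrobial lectin, had 381 in the library labelled DDX3, against 1206 in the vector library and was at least 3.16-fold lower. The 33 genes and these bounds each come mainly from single probes.

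At a looser 1.5-fold threshold 171 genes were higher (1.73% of measured genes) and 183 were lower (1.86%), together 3.59%. Gene groups are read against these shares and against the 48.8% of measured genes above 0 and the 51.2% below. Immediate early genes, the fast transcriptional response to growth factors and stress, stood mostly above 0. All 26 listed genes were measured, 22 lay above 0, the median was 0.40, with 8 past 1.5-fold on the higher side and 1 on the lower side. ATF3 and CYR61 were the 2 past 2-fold. The list median had been known from earlier results of these arrays and is no independent support of a direction.

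Of the FOS and JUN proteins that pair to form AP-1, all 7 were measured, and those higher at 1.5-fold were FOSL1, JUN, FOS, FOSB and JUNB. JUN had 3331 in the library labelled DDX3, 3487 in the library labelled DDX3+YAPsi and 1969 in the vector library. FOS had 4669, 4567 and 2925 in the same order, and FOSB had 708, 729 and 462. These genes had nearly equal values in both libraries with a DDX3 label and a lower one in the vector library. JUNB had 1331, 1227 and 874 in that order. JUND, which unlike JUN is made at a steady level in most cells, went the other way, with 9122 in the library labelled DDX3, 14316 in the library labelled DDX3+YAPsi and 13243 in the vector library. FOSL2 differed by -0.22. All but FOSL2 rest on 1 probe.

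The other leading immediate early genes were KLF2, a Krueppel-like factor, with 8873 in the library labelled DDX3, 10653 in the library labelled DDX3+YAPsi and 5361 in the vector library, and ZFP36, which binds AU-rich mRNAs and speeds their decay, with 1330, 1599 and 828. EGR1, a zinc finger factor induced by serum, was bright throughout, with 53370, 94328 and 39502 in the same order and a difference of 0.43. MCL1, an inhibitor of apoptosis with a short-lived mRNA, was the member at least 1.5-fold lower, at -0.62. The other members below 0 were IER5, SRF and KLF4, at -0.35, -0.27 and -0.16. SRF is the factor that binds the CArG box, and its own value was not higher.

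Promoters of FOS and EGR1 are shown because these genes are textbook serum responders that stood higher in the library labelled DDX3. Each is the 250 bases before the annotated start, from RefSeq (GRCh38.p14), 5′ to 3′, with motif matches in capitals: CArG boxes in EGR1 (chr5:138465229-138465478, plus strand) and the TATA box TATAAA in FOS (chr14:75278578-75278827, plus strand).
EGR1: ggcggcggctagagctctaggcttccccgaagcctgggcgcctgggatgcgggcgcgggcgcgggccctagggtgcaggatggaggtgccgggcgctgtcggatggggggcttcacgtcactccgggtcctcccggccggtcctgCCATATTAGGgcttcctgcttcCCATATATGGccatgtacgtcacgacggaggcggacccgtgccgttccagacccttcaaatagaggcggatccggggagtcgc
FOS: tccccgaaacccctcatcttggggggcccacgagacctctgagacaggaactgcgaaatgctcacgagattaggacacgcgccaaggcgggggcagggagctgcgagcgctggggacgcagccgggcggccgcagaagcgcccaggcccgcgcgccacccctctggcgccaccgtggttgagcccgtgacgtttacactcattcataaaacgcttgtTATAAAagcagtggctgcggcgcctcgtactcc

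EGR1 holds 2 CArG boxes within a short stretch, and FOS holds a TATA box close to its start. Only the 250 bases before the start were searched. A motif farther upstream, in FOS or another gene, would be missed, so no match does not mean that a promoter lacks the motif. Of the 26 immediate early genes 19 had a window in the promoter table. A CArG box was searched for as CC and GG around a run of A or T of fixed length. It was found for 3 of these 19 genes (15.8%), namely EGR1, EGR2 and SRF, against 1.44% of all 27305 gene symbols with a window. TATAAA was found for 5 (26.3%) against 3563 of the 27305 symbols, and TGACGTCA, the cyclic AMP response element, for 2 against 2.03%. The AP-1 motif TGANTCA was found for none of the 19, against 8.06% of all symbols. Both strands were searched for every motif, the matches do not overlap in the windows shown, and a match is a run of letters, not a measured site.

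Target genes of YAP1 and its paralogue TAZ were above 0 as well. Of the 26 on the list 15 were measured and 14 stood above 0. The median was 0.32, and 4 were at least 1.5-fold higher. GADD45A, a growth arrest and DNA damage gene, had 16345 in the library labelled DDX3, 15165 in the library labelled DDX3+YAPsi and 10006 in the vector library. MYOF, a membrane repair protein, had 4375, 3812 and 2719 in the same order, and ASAP1, an ARF GTPase-activating protein, had 1237, 1359 and 799. These genes were also high in the library labelled as carrying the YAP1 knockdown plasmid, in which YAP1 was not low. CTGF (current symbol CCN2), a secreted matrix protein and a textbook YAP1 target, had 698, 854 and 476 in that order. F3, the tissue factor gene, had 1139, 1285 and 798. CTGF, like CYR61, lay near the floor in the vector library.

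The CTGF promoter is shown for its TEAD motifs, since YAP1 acts through TEAD factors. The 250 bases before the start (chr6:131951373-131951622, minus strand, RefSeq, GRCh38.p14) are given 5′ to 3′, with GGAATG and the TATA box in capitals.
CTGF: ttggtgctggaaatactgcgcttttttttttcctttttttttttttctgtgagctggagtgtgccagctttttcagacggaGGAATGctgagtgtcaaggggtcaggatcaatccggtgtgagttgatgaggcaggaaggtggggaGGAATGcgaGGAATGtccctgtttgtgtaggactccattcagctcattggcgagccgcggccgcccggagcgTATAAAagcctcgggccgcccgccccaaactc

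GGAATG occurs 3 times in this window. It was found in 4 of the 10 YAP1 and TAZ targets with a window (40.0%), namely CTGF, AMOTL2, NUAK2 and TNS1, against 14.3% of all gene symbols. Of these 4 genes CTGF differed by 0.55, TNS1 by 0.20, NUAK2 by 0.11 and AMOTL2 by 0.06. Among the 12 genes with a window that were at least 2-fold higher, GGAATG was found for OPTC alone. It was found for 2 of the 11 at least 2-fold lower genes with a window (18.2%) and for 4 of the 19 immediate early genes (21.1%).

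Growth factor signalling genes leaned the same way with smaller differences. Feedback genes of ERK, the MAP kinase downstream of RAS, had 9 of 12 measured members above 0, a median of 0.21 and none past 1.5-fold in either direction. DUSP6, a phosphatase for ERK, had 1300 in the library labelled DDX3, against 873 in the vector library. SPRED2, which dampens RAF, had 1716 in the library labelled DDX3, against 1169 in the vector library. ETV4, an ETS factor induced by ERK, lay below 0 at -0.44. The EGF receptor family and its ligands had 5 of 6 measured genes above 0 and a median of 0.24, led by the ligand HBEGF, with 1085 in the library labelled DDX3, against 783 in the vector library.

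Oxidative and amino acid stress genes were mixed. Targets of NRF2, the factor that answers oxidative stress, had 10 of 16 measured genes above 0 and a median of 0.18. GCLM and GCLC, the subunits of the enzyme that starts glutathione synthesis, differed by 0.73 and 0.41. ATF4 and its targets had 10 of 19 above 0 and a median of 0.05, although DDIT3, a factor of the integrated stress response, had 11280 in the library labelled DDX3, against 6888 in the vector library. The unfolded protein response lay at a median of -0.03, with XBP1 at -0.71 and the chaperone DNAJB11 at 0.66. Cytosolic heat shock genes had a median of 0.05, and STIP1, which links HSP70 to HSP90, was the member past 1.5-fold at 0.86.

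Symbol families group genes by symbol and not by pathway. They share members with the lists above and were also chosen with earlier results of these data known, so they are no independent view. Of 79 families 72 had at least 10 measured genes, and their medians ran from -0.17 to 0.20, with 4 above 0.1 and 10 below -0.1. The 4 families above 0.1 were the JUN, FOS, ATF, MAF and CEBP factors, with 14 of 21 above 0 and a median of 0.20, nuclear receptors, Krueppel-like and SP factors, and nucleoporins with nuclear transport factors. The first shares most of its leading members with the immediate early list, and Krueppel-like and SP factors share KLF2 with that list. Krueppel-like and SP factors had 12 of 18 above 0 and a median of 0.13, with KLF10 at 0.57 and KLF5, a factor of proliferating gut epithelium, at 0.57. With the brightest probe of each gene the median of Krueppel-like and SP factors was 0.04, and with no floor 0.06.

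Nuclear receptors, transcription factors that bind hormones and lipids, had 15 of 21 measured members above 0 and a median of 0.20. Their largest differences were nevertheless negative: RARG, a retinoic acid receptor, had 837 in the library labelled DDX3, against 1520 in the vector library. These are means of 2 measured probes, the brighter at -0.47, under 1.5-fold, and the dimmer at -1.25. RXRB, a shared dimer partner, had 964 in the library labelled DDX3, against 1610 in the vector library. NR1H2, an oxysterol receptor, differed by -0.62. Its measured probe stood at -0.91, and its other probe, at -0.33, was under the floor in the library labelled DDX3. The highest member was VDR, the vitamin D receptor, with 4067 in the library labelled DDX3, against 2887 in the vector library. Thus, by gene value, 3 receptors were at least 1.5-fold lower and none was past 1.5-fold above 0, while most members stood slightly above 0.

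Nuclear pore and transport proteins had 32 of 45 measured members above 0 and a median of 0.12. THOC2 and THOC1, subunits of the complex that couples transcription to mRNA export, differed by 0.65 and 0.57. IPO7, an import receptor, had 7779 in the library labelled DDX3, against 5631 in the vector library. XPO7, an export receptor, was opposite, with 2632 in the library labelled DDX3, against 4088 in the vector library as a mean of 2 probes. The brighter XPO7 probe stood at -0.26 and the dimmer at -1.01. Leaving the scaling out lowers the difference of every gene alike, and the family medians were then -0.07 for nuclear pore and transport proteins, 0.00 for nuclear receptors, 0.01 for the JUN, FOS, ATF, MAF and CEBP factors and -0.06 for Krueppel-like and SP factors.

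Genes closest to the known work of DDX3 gave medians near 0, although initiation factors had more members above 0 than below. Among DEAD-box and DEAH-box helicases 21 of 41 measured members lay above 0, with a median of 0.03. DHX16, a helicase of the spliceosome, had 2033 in the library labelled DDX3, against 1115 in the vector library. DDX41, a sensor and splicing helicase, had 516 in the library labelled DDX3, against 821 in the vector library, as a mean of 2 probes. Its measured probe stood at -0.43, and the other, at -0.91, was under the floor in the library labelled DDX3. Translation initiation factors had 28 of 41 above 0 and a median of 0.05, with the EIF3 subunit EIF3L at -0.56. The cap-binding protein EIF4E had a gene value of 0.43, of which the measured probe gave 0.19 and a probe under the floor in the vector library 0.67. Stress granule and cap-binding partners had 18 of 34 above 0 and a median of 0.01, with the poly(A)-binding protein PABPC1 at -0.59 and the granule nucleator G3BP1 at -0.49. Innate sensing partners had 4 of 9 above 0, from IRF3 at -0.27 to TRAF3 at 0.33. Interferon response genes had 7 of 19 above 0 and none past 1.5-fold.

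Cytosolic ribosomal proteins had 29 of 61 measured members above 0 and a median of -0.01, with RPL8, among the brightest, at 273485 in the library labelled DDX3, against 446230 in the vector library. The large subunit of the mitochondrial ribosome had 23 of 44 above 0 and a median of 0.01. MRPL38 and MRPL2, at -1.98 and -0.91, were its 2 members at least 1.5-fold lower, so MRPL38 did not go with its family. Exosome, cleavage and polyadenylation factors had 7 of 24 above 0 and a median of -0.13, led by CSTF2 at -0.75. In RBM proteins RBM4B also stood apart, since 18 of the 31 measured members lay above 0.

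Several groups of metabolic enzymes leaned below 0, and others lay near it. Genes of the glycosylphosphatidylinositol anchor had 11 of 24 measured members above 0 and a median of -0.01. Glycosyltransferases had 30 of 66 above 0 and a median of -0.04. Genes that make and attach N-glycans, the sugar chains put on proteins in the endoplasmic reticulum, had 9 of 37 measured members above 0 and a median of -0.14. GMPPA was the member past 2-fold. DPM3, a subunit of the enzyme that makes dolichol phosphate mannose, had 2569 in the library labelled DDX3, against 3981 in the vector library. These are means of 2 probes. The measured probe stood at -0.54, and the other, at -0.72, was under the floor in the library labelled DDX3. DDOST, a subunit of the oligosaccharyltransferase, had 67025 in the library labelled DDX3, against 92103 in the vector library, as a mean of 3 probes. DHDDS, which makes the dolichol backbone, was above 0 at 0.40.

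Fatty acid synthesis had 7 of 22 above 0 and a median of -0.16, with AGPAT2, which makes phosphatidic acid, at -0.61. ACACA, the acetyl-CoA carboxylase, had a gene value of -0.53, but its measured probe stood at 0.08, with 11150 in the library labelled DDX3, against 10556 in the vector library, and its other probe, at -1.13, was under the floor in the library labelled DDX3. Cholesterol synthesis had 7 of 20 above 0 and a median of -0.13, with MVK and MVD, enzymes of the mevalonate pathway, at -0.73 and -0.56. Aldehyde, aldo-keto and alcohol dehydrogenases had the lowest median of the larger families, -0.17, with 8 of 30 above 0. ALDH1A1, which oxidises retinal, had 15371 in the library labelled DDX3, against 22180 in the vector library, and ALDH1B1 was above 0 at 0.46. Acyl-CoA enzymes had 5 of 21 above 0. In the inositol and phosphoinositide list, where ISYNA1 belongs, 13 of 32 measured genes lay above 0, the median was -0.06, and PI4KA at -0.62 was the other member at least 1.5-fold lower.

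**Figure D3:**
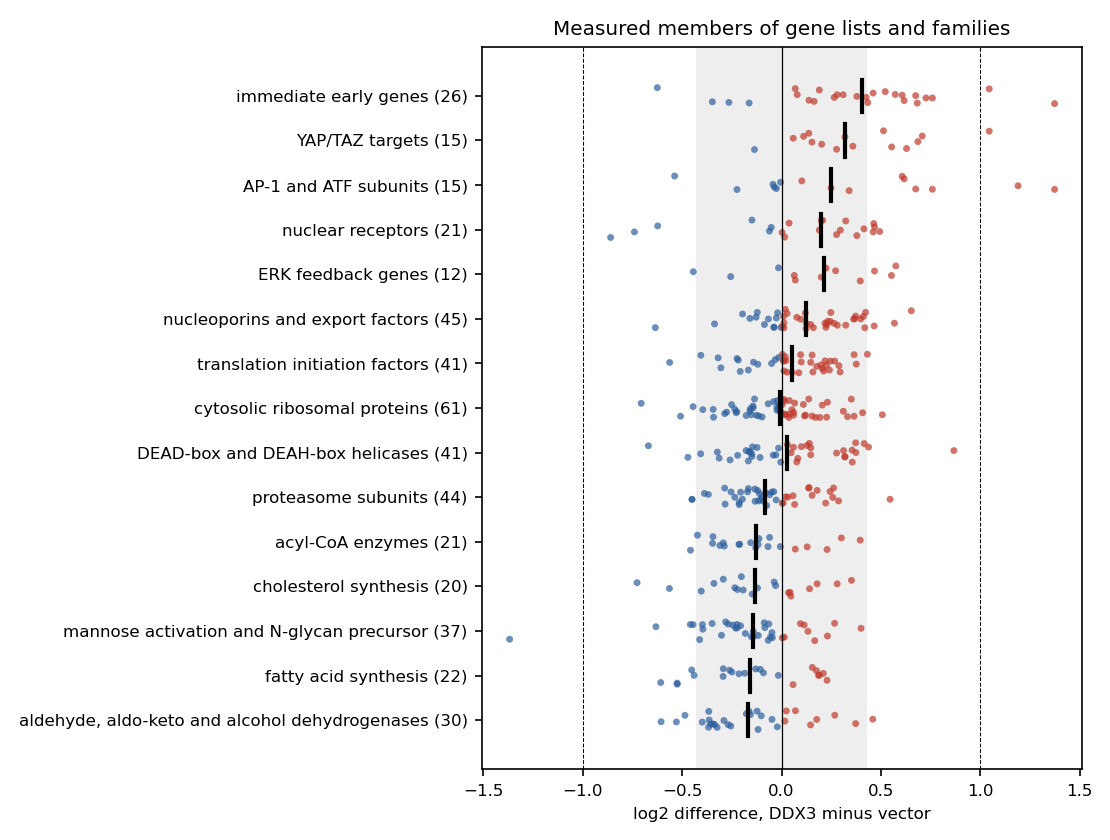
Each point is a measured gene, placed by its log2 difference, DDX3 minus vector, in 15 gene lists and families with the number of measured members in brackets. Red points lie above 0 and blue points below, black bars are medians, the grey band is the 5th to 95th percentile of all measured genes (-0.42 to 0.43), and dashed lines mark 2-fold. Vertical scatter within a row carries no value. The immediate early list has the highest median of the rows shown at 0.40.

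Among serine/threonine phosphatase subunits 32 of 64 lay above 0. PPP2R1A, the scaffold of protein phosphatase 2A, had 12179 in the library labelled DDX3, against 21939 in the vector library, and PPP2R4, an activator of that enzyme, had 1806 in the library labelled DDX3, against 2762 in the vector library. PPME1, a methylesterase of the same enzyme, differed by -0.63 and was noted after its value was seen, beside IGBP1 among the 2-fold lower genes.

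Cell cycle genes were balanced. Mitotic genes had 18 of 34 above 0 and a median of 0.01, with CDC25C at -0.76 and the spindle factor TPX2 at -0.65. DNA replication genes had 26 of 49 above 0 and a median of 0.04, and PCNA, the sliding clamp, had 118281 in the library labelled DDX3, against 162439 in the vector library. G1 cyclins, CDKs and inhibitors had 9 of 21 above 0 although CDK6 belongs there. Wnt components and targets had 18 of 29 above 0 and a median of 0.06; beside RSPO2, the Wnt inhibitor NOTUM had 6447 in the library labelled DDX3, against 11386 in the vector library. SOX9, a stem and Paneth cell factor that is also a Wnt target, differed by -0.60, while SOX4 differed by 0.60.

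Olfactory receptors were a large family on the array, with 75 of 297 measured. Of these 26 lay above 0 and the median was -0.08, yet 5 were past 1.5-fold on the higher and 2 on the lower side. OR10AG1 had 787 in the library labelled DDX3, against 417 in the vector library, and OR56A3 had 803 and 431 in the same order, so both vector values were near the floor. Histone genes had 9 of 28 above 0 and a median of -0.09, and HIST1H2BO, a histone H2B gene, was the highest at 0.98. Such genes have near-identical copies, and probes may be shared between them. Proteasome subunits had 16 of 44 above 0 and complex I subunits 18 of 40, with none and 1 past 1.5-fold.

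Genes with several probes give the one internal check of a difference. At least 2 probes were measured in 2371 genes, and in 57.9% of them all probes pointed the same way. Differences of the first and second probe had a Pearson correlation of 0.28 and a Spearman correlation of 0.29 over these genes, which share both arrays and the scaling. The median gap between the 2 probes was 0.23. When the first probe differed by less than 0.1, the second pointed the same way in 52.4% of 676 genes, and when it differed by at least 0.5, in 74.4% of 199 genes. Of 57 genes whose first probe was at least 1.5-fold higher, the second was above 0 in 43 and itself 1.5-fold higher in 5, with a median of 0.16. Of 68 genes whose first probe was at least 1.5-fold lower, the second was below 0 in 48 and 1.5-fold lower in 8, with a median of -0.23. No gene had all probes past 2-fold in 1 direction. Probes of a gene can also measure different transcripts.

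Among genes with all probes above 0, 8 were taken by the size of their smallest probe difference, not by the gap between probes. ENAH, an actin regulator of the leading edge, led them, with probes at 0.81 and 0.84. Its gene values were 2917 in the library labelled DDX3, 2478 in the library labelled DDX3+YAPsi and 1649 in the vector library. NFIA, a nuclear factor I protein, had probes at 0.70 and 0.81 and values of 1404, 1357 and 831 in the same order. FAM120A, an RNA-binding scaffold, had 13976, 13245 and 7892. For these genes, though not for all 8, the library labelled DDX3+YAPsi lay close to the library labelled DDX3. CASP8, the initiator caspase of death receptors, had probes at 0.56 and 0.87, and CITED2, a coregulator of CBP and p300, at 0.56 and 0.62. OR10A4, FAM63B (current symbol MINDY2) and METAP2 made up the 8. METAP2 had 7670 in the library labelled DDX3, 4808 in the library labelled DDX3+YAPsi and 5199 in the vector library. OR10A4 had 870, 681 and 528 in the same order, and CITED2 had 907, 737 and 604.

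On the lower side, by the same rule, IGBP1 was followed by IDH3G, a subunit of the mitochondrial isocitrate dehydrogenase. The IDH3G probes stood at -0.92 and -0.86. Its gene values were 2847 in the library labelled DDX3, 4047 in the library labelled DDX3+YAPsi and 5259 in the vector library. SELM (current symbol SELENOM), a selenoprotein of the endoplasmic reticulum, had 2568, 3442 and 4530 in the same order. PDZD11, a PDZ scaffold, had 4596, 5447 and 8042. In each of these 3 genes the library labelled DDX3 was lowest and the library labelled DDX3+YAPsi in between. YIPF3, ERAL1, a GTPase that helps to assemble the small mitochondrial ribosomal subunit, JTB and WBSCR16 (current symbol RCC1L) completed the group. In YIPF3, ERAL1 and JTB the library labelled DDX3+YAPsi was also in between. In IGBP1 and WBSCR16 it was lowest, with 926 and 3785. The library labelled DDX3 had 952 and 4030 for these, and the vector library 1919 and 6179.

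In contrast, 33 genes had probes at least 1 apart on the log2 scale. The widest gap was in CCL5, a chemokine, whose probes stood at 2.13 and -0.63. The brighter of these had 7204 in the library labelled DDX3, 4345 in the library labelled DDX3+YAPsi and 1641 in the vector library, and the dimmer had 391.6, 527 and 607. The zinc transporters SLC39A14 and SLC39A9, the kinase NEK7, the nuclear envelope protein SUN2 and the polymerase POLE followed. DDX3X, with a gap between -1.17 and 0.23, belongs to these 33 genes.

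**Figure D4:**
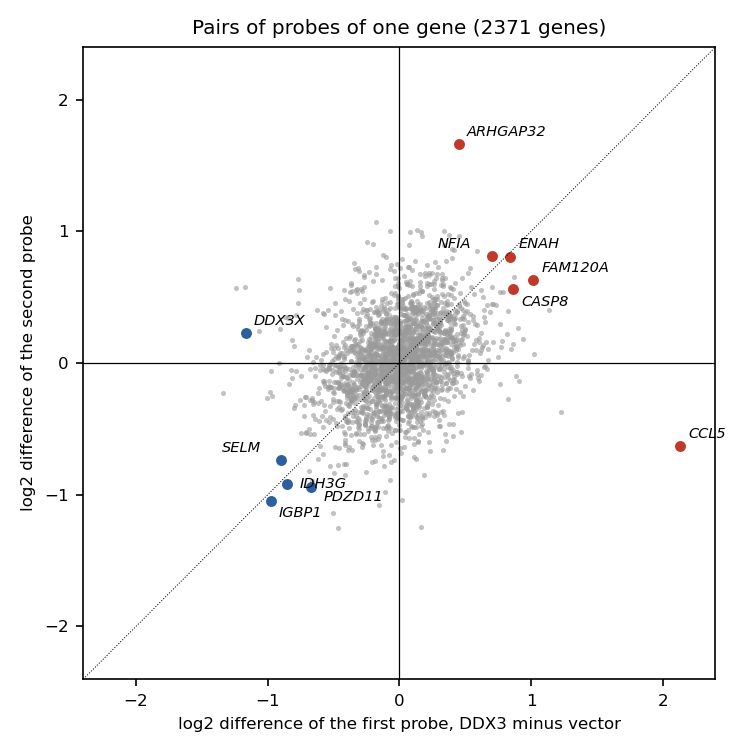
Each point is a gene with at least 2 measured probes (2371 genes), with the log2 difference, DDX3 minus vector, of its first probe on the horizontal axis and of its second on the vertical axis. The dotted line marks equal values. ENAH, NFIA and FAM120A lie in the upper right, IGBP1 and IDH3G in the lower left, and CCL5 and DDX3X off the line, while most points form a cloud around 0.

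The SD of the differences was of like size from dim to bright genes, while the share past 1.5-fold varied more. In 5 equal groups by mean intensity the SD of the differences was 0.26 in the dimmest, 0.29 and 0.28 in the next, then 0.26, and 0.24 in the brightest. The share of genes past 1.5-fold was 3.45% in the dimmest group, highest at 4.97% in the next, and 2.13% in the brightest. The brightest group held 3 of the 2-fold higher genes and none of the lower ones. The second brightest held none of the higher and 5 of the lower genes.

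Gene length went with the direction of the small differences. Lengths came from RefSeq (GRCh38.p14) for 9830 of the 9863 measured genes. Genes were put into 5 equal groups by length. In the shortest group, with a median length of 4.58 kb, 41.8% lay above 0, and in the longest group, with a median of 135 kb, 58.9% did. The median difference was -0.05 in the shortest and 0.05 in the longest group, and the Spearman correlation across genes was 0.14. Chromosomes with long genes stood higher: the median was 0.08 for chromosome 18 and 0.07 for chromosome 13, against -0.07 for chromosome 19, where gene length had a median of 14.3 kb. Genes at least 1.5-fold higher had a median length of 26.9 kb and those at least 1.5-fold lower 15.4 kb, against 27.8 kb for all. The immediate early list went against this, since 21 of its 26 genes are in the shortest group. Of the 45 nuclear pore and transport genes 15 are in the longest group and 2 in the shortest. RNA quality values of the single libraries were not analysed here, and their part in this pattern was not tested.

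**Figure D5:**
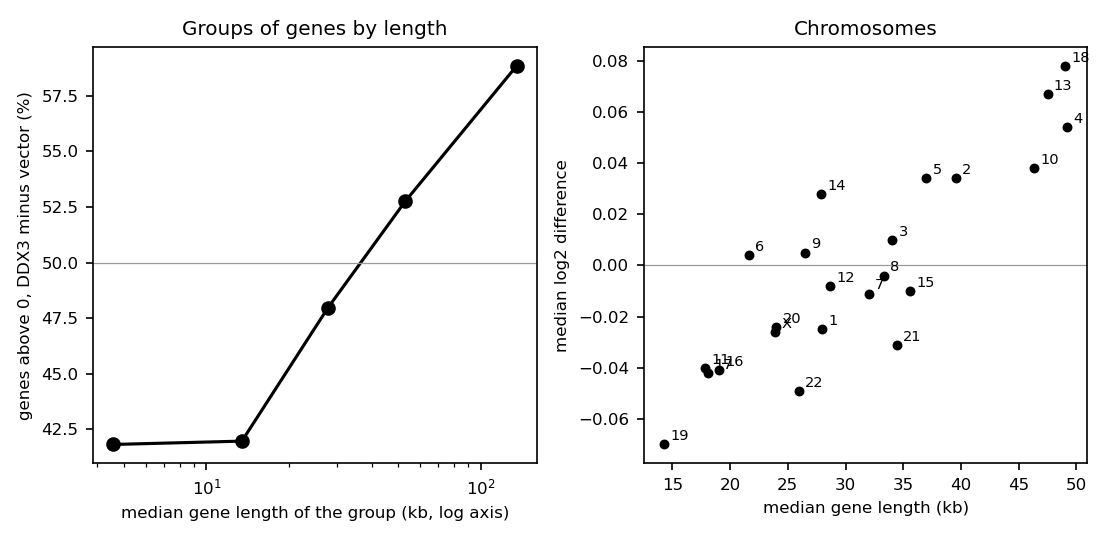
Left, the percentage of genes above 0 (DDX3 minus vector) in 5 equal groups of measured genes by gene length, placed at the median length of each group on a log axis. Right, the median log2 difference of each chromosome against the median length of its measured genes. The percentage runs from 41.8% in the shortest to 58.9% in the longest group, and chromosome 19 is lowest and chromosome 18 highest.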

How the data were processed

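The deposited table holds probe intensity on a linear scale for 3 libraries, as its values show, and per the labels each library held 2 technical replicates. The sources used here do not say how the authors combined them, corrected background or scaled the arrays, and 434 and 531 values above 65535 in the libraries labelled DDX3 and vector show that they are not plain readings of a 16-bit scan. Saturation could not be judged. Here the libraries were scaled to a common 75th percentile (factors 0.922 for DDX3, 0.806 for vector and 1.346 for DDX3+YAPsi). The library labelled DDX3+YAPsi was dimmer as deposited, with a 75th percentile of 1710, against 2495 for DDX3 and 2856 for vector. Its scaled values, with a floor of 411, thus rest on a larger upward scaling. After log2, gene values were means over probes with 1 symbol in the platform annotation: 24658 of 31741 probes, with 1002 holding several and 6081 none. Of the 18282 symbols 18221 were current or synonyms in RefSeq. Genes were called by a 2-fold or 1.5-fold difference with both values at or above the 50th percentile. Precision is limited by the number of arrays, and with 1 library a group no test or error was possible. Python 3.11.15, pandas 2.3.3, numpy 2.4.6, statsmodels 0.14.6 and matplotlib 3.10.9 were used, and the steps were tested on simulated data.

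Named genes were DDX3X, YAP1 and SIX2, each gene past 2-fold, the 6 largest bounds each way, the 8 multi-probe genes each way with the best agreement, the 6 with the widest gap, and up to 6 members of a list or 4 of a family with the largest absolute difference. Uncharacterised, antisense and pseudogene symbols were passed over apart from the 2-fold genes. Members given in full lists, or for their promoters, lie partly outside this rule and were chosen with their values known. The members, lists and families were chosen with earlier results of these data known. Alternatives were other scalings (common median, none, quantile, loess), other floors, the brightest or median probe, a pseudocount of 16, and genes with 2 or more probes all past the threshold. A few results are not reported here.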

Additional observations from a re-analysis of the deposited data

Results flagged for a closer look

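Probes with no gene symbol or with several had been left out of the gene values, and signal also appeared there. Of 7083 such probes 2274 were measured in both libraries, 11 were higher in the library labelled DDX3 by 2-fold or more and 9 were lower by as much, which is 0.88% together, against 0.49% of the 13161 measured probes with 1 symbol. Their differences ran from -1.92 to 1.74. The highest had 1637 in the library labelled DDX3, 492 in the library labelled DDX3+YAPsi and 490 in the vector library, so only the library labelled DDX3 was high. The lowest had 2287, 3549 and 8657 in the same order. The difference in share was not tested.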

How the results depend on the processing

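No paired analysis was possible because each group holds 1 library. The main setting called 18 genes higher and 15 lower. Without scaling, 6 were higher and 45 lower, since all measured genes then had a median of -0.20. A floor at the 25th percentile gave 47 and 31, one at the 75th percentile 3 and 5, and no floor 78 and 37. The brightest probe of each gene gave 29 higher and 20 lower, 1.5-fold gave 171 and 183, and 2 or more probes all past 2-fold gave 0 and 0; 5 and 8 genes had all probes past 1.5-fold. Scaling to a common median gave 15 higher and 18 lower, so that 45.5% in place of 54.5% of the calls were higher. Quantile normalization, loess centring, the median probe and the pseudocount stayed within 1.5 times of both counts. The probe agreement, the share of genes whose probes all pointed 1 way, was 68.4% without scaling, 64.2% with the floor at the 75th percentile and 52.4% with no floor, against 57.9% in the main setting. The higher share without scaling cannot be read as better agreement, since that setting lowers every probe alike and so moves more of them below 0. Of the 564 genes that the naming rule covers 19 changed sign with the brightest probe and 12 without scaling. With the brightest probe DDX3X turned to 0.23, against -0.47 in the main setting. Without scaling the immediate early median was 0.21, with 17 of 26 genes above 0, and that of YAP1 and TAZ targets 0.12, with 10 of 15 above 0. Dim genes near the floor and single probes limit what these 2 libraries can show.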
